A study of Rattus norvegicus with 3 samples.

Results

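The genes described here are the matrix metalloproteases Mmp2, Mmp7, Mmp9, Mmp12, Mmp14 and Mmp19 and the tissue inhibitors Timp1, Timp2 and Timp3, matched by name to the symbol column of the deposited feature tables. They were chosen with earlier results of these data known. All 9 were found, among 25199 features with rat Ensembl identifiers. They were read in single cells of injured spinal cord from wild-type rats aged 6 to 8 weeks. The animals had received MPG-HD, G-HD or PBS by injection at the injury site, and PBS was taken as the control. By the title of the series the hydrogels are meant as a depot to repair a severe lesion of the cord, and the labels do not spell out the letters. Each condition used 5 animals and has 1 library, the labels do not say how its animals were pooled, and they give no time after injury. Cord of 5 mm length at the lesion was taken apart with collagenase and trypsin, red cells were lysed, and the suspension went into a 10x Genomics 3′ assay, which counts unique molecular identifiers (UMIs), tags that mark single captured RNA molecules.

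Matrix metalloproteases are zinc enzymes, secreted or held in the cell membrane, that cut collagens, elastin, laminins, proteoglycans, cytokines and receptors. Most are made as inactive proenzymes, and the tissue inhibitors of metalloproteases (TIMPs) bind the active site, so the balance of both sides sets how fast a matrix is remodelled. In the injured spinal cord these enzymes are known from invading leukocytes, where they act on the blood-spinal cord barrier, and from scar-forming cells and glia, where they act on the scar matrix.

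The 3 libraries held 2339 (MPG-HD), 2619 (G-HD) and 1513 (PBS) barcodes with 23988263, 26289759 and 16081082 UMIs. After filtering, 2087 MPG-HD cells, 2342 G-HD cells and 1374 PBS cells remained, with medians of 10425, 9247.5 and 10294 UMIs. They formed 25 clusters, grouped without the metalloprotease and inhibitor genes and named from marker genes, so class names end in "like". Macrophage-like cells were 449 MPG-HD, 701 G-HD and 338 PBS cells, microglia-like cells 390, 299 and 271, and fibroblast-like cells 168, 237 and 136. None of the defining markers of these 3 classes was at 0 in its own class in any library. The same markers had named the clusters, so this is no separate check of the names. Clusters 4 and 6 (macrophage-like), 12 (microglia-like) and 13 (fibroblast-like) had 0 markers of their set among their 10 leading genes. Between libraries 21 barcodes were shared, 17 of them among the kept cells. Libraries, animals and treatments cannot be told apart with 1 library per condition. No test was therefore possible, and every interval below is a 95% interval for counting error only.

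Mmp12 and Mmp7 lie on rat chromosome 8 with other metalloprotease genes between them. In the RefSeq annotation of build GRCr8, the 9 protein-coding genes from Mmp12 to Mmp7 were all Mmp genes, in the order Mmp12, Mmp1b, Mmp3, Mmp1, Mmp10, Mmp8, Mmp27, Mmp20 and Mmp7. Over all barcodes, these features held 7652, 0, 6, 0, 0, 3905, 4, 4 and 703 UMIs. Of these genes, Mmp12, Mmp7 and the neutrophil collagenase gene Mmp8 were thus the readily detected ones, and the others were at or near 0. The order of genes beyond Mmp12 and Mmp7 was not examined. The promoter windows of Mmp7 and Mmp12 are shown because these genes shared a cell class below and their windows shared a motif. Each window runs from 250 bases before the annotated start to 50 bases after it, on the plus strand, at chr8:13132793-13133092 for Mmp7 and chr8:12866402-12866701 for Mmp12. The capitals mark the motif TGANTCA, the letters known as a binding site of AP-1, a dimer of Fos and Jun proteins.
Mmp7: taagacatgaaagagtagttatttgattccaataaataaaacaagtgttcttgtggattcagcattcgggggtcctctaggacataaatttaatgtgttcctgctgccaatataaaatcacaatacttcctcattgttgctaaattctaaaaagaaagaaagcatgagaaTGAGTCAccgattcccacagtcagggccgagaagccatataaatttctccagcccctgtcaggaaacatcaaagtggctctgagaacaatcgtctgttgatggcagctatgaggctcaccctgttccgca
Mmp12: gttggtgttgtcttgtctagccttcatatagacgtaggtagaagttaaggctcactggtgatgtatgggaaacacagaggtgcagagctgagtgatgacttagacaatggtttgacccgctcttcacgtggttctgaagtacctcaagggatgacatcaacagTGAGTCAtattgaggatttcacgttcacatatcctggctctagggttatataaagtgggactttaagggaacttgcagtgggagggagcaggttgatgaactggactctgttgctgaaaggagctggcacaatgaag
The match begins 80 bases before the start of Mmp7 and 87 bases before that of Mmp12. TGANTCA reads the same on both strands, and it was found in 2453 of 33469 rat promoter windows of this length (7.33%). Of the 9 genes, 5 had a window in the table used, and the windows of Timp1, Timp2 and Timp3 held no match. A match of letters describes the window and shows no binding.

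Each of the 9 genes except Timp2 had the same highest class in the 3 libraries. Levels are given in CPM, the UMIs of a gene per 1000000 UMIs of all genes, summed over the cells of 1 class and library. Class levels below are means of the 3 libraries, for classes that had 20 or more cells in every library. Fibroblast-like cells were the highest class for Mmp2, Mmp14, Mmp19, Timp1 and Timp3, macrophage-like cells for Mmp7 and Mmp12, and neutrophil-like cells for Mmp9. Because the clusters were made from these same cells, the differences between classes are descriptions.

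**Figure D1:**
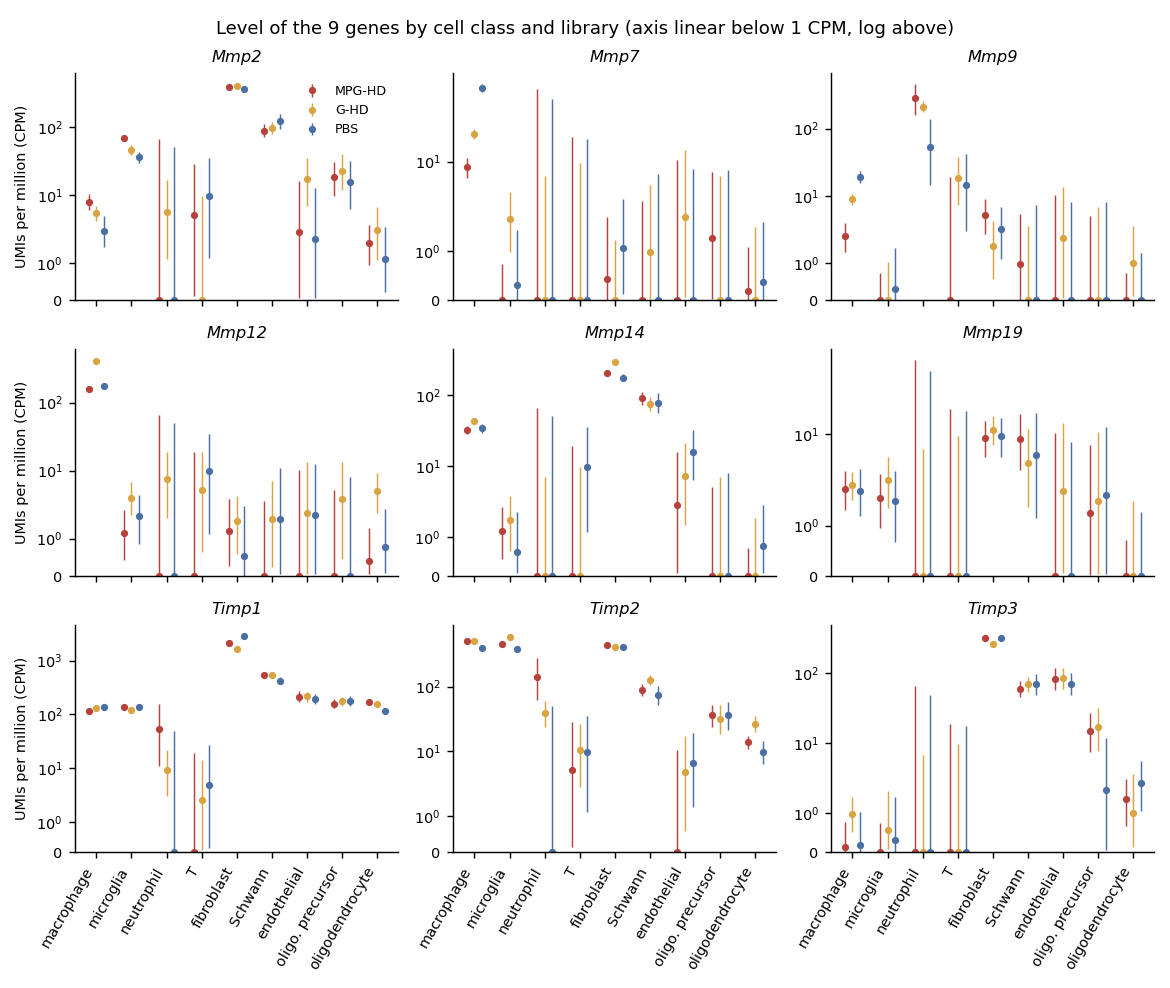
Level of each of the 9 genes, in CPM of the class (axis linear below 1 CPM and logarithmic above), by cell class and library; points are MPG-HD, G-HD and PBS libraries from left to right, and bars are 95% Poisson intervals for counting error only. Mmp7 and Mmp12 stand far above the other classes in macrophage-like cells, and Mmp9 does so in neutrophil-like cells of MPG-HD and G-HD. In PBS the Mmp9 intervals of neutrophil-like and macrophage-like cells overlap. Timp1 and Timp3 are highest in fibroblast-like cells, with Timp1 also present in several other classes, while Timp2 is spread over several classes.

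Mmp12, macrophage metalloelastase, and Mmp7, matrilysin, were nearly confined to macrophage-like cells. These cells held 96.4% of the Mmp12 UMIs of the MPG-HD library, 95.5% of those of the G-HD library and 98.2% of those of the PBS library. For Mmp7 the shares were 95.4% (MPG-HD), 95.1% (G-HD) and 98.4% (PBS). The mean level of Mmp12 was 251 CPM in macrophage-like cells and 4.98 CPM in the next class, T-like cells. Mmp7 had 31.9 CPM in macrophage-like and 0.864 CPM in microglia-like cells. Microglia, the resident phagocytes of the cord, thus carried few UMIs of either gene. Mmp12 had 6, 14 and 7 UMIs in microglia-like cells of MPG-HD, G-HD and PBS. Mmp7 had 0, 8 and 1 UMIs there, where 3 UMIs in the MPG-HD cells would be 0.600 CPM.

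Mmp9, gelatinase B, is stored in neutrophil granules and is also made by activated macrophages. It had 284, 212 and 53.9 CPM in neutrophil-like cells of MPG-HD, G-HD and PBS, from 16, 114 and 4 UMIs, and 2.50, 8.92 and 19.1 CPM in macrophage-like cells. In PBS the counting interval of the neutrophil-like level (14.7 to 138 CPM) overlapped that of the macrophage-like level (15.6 to 23.2 CPM). Neutrophil-like cells were few, with medians of 1516, 2362 and 1648.5 UMIs per cell in MPG-HD, G-HD and PBS. They held 33.3% of the Mmp9 UMIs in MPG-HD, 47.3% in G-HD and 3.36% in PBS, whereas macrophage-like cells held 37.5%, 45.2% and 86.6%. PBS thus had the lowest neutrophil-like share, but few cells set these shares. In MPG-HD, 2 cells held 12 of the 16 neutrophil-like UMIs, and fibroblast-like cells held another 12 UMIs. In PBS, 1 cell held 43 of the 103 macrophage-like UMIs.

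Mmp2, gelatinase A, and Mmp14, the membrane-type metalloprotease that activates pro-Mmp2 at the cell surface, were both highest in fibroblast-like cells. Mmp2 had 378 CPM there and 102 CPM in Schwann-like cells, and Mmp14 had 221 CPM there and 80.4 CPM in Schwann-like cells. The classes differed for the same genes among phagocytes. Mmp2 was detected in microglia-like cells at 68.2, 45.4 and 35.5 CPM in MPG-HD, G-HD and PBS, but at 7.92, 5.32 and 2.97 CPM in macrophage-like cells. Mmp14 was the reverse, with 32.0, 43.0 and 33.6 CPM in macrophage-like cells of MPG-HD, G-HD and PBS and 6, 6 and 2 UMIs in all their microglia-like cells. Mmp19, a secreted metalloprotease, was sparse everywhere, with 193 UMIs in the 5803 kept cells, and its levels of 9.96 CPM in fibroblast-like and 6.54 CPM in Schwann-like cells rest on few molecules.

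Timp1, the inhibitor known to be induced in injured tissue, reached 2216 CPM in fibroblast-like cells and 503 CPM in Schwann-like cells. It was also found in 57.2% of all kept cells. Its level was between 115 and 216 CPM in each library of the oligodendrocyte-like, oligodendrocyte precursor-like, endothelial-like, macrophage-like and microglia-like cells. T-like cells, in contrast, held 0, 1 and 1 Timp1 UMIs in MPG-HD, G-HD and PBS at median depths of 3470, 3223 and 3405 UMIs per cell. These counts are 0 CPM (where 3 UMIs would be 15.3 CPM), 2.62 CPM and 4.85 CPM. The part of RNA set free from broken cells in the Timp1 levels of the other classes was not tested.

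Timp2, which inhibits metalloproteases and also links Mmp14 to pro-Mmp2, was carried by phagocytes and fibroblast-like cells alike. Its means were 477 CPM in microglia-like cells and 465 CPM in macrophage-like cells, and the libraries differed in which class came first. MPG-HD had 463 CPM in microglia-like and 501 CPM in macrophage-like cells, G-HD had 589 and 502 CPM, and PBS had 381 and 394 CPM. Fibroblast-like cells had 434, 407 and 407 CPM in MPG-HD, G-HD and PBS. Timp3, the inhibitor that binds to the matrix and also acts on ADAM proteases, was at 300 CPM in fibroblast-like cells and 80.6 CPM in endothelial-like cells. Macrophage-like cells held 1, 12 and 1 UMIs of Timp3 in MPG-HD, G-HD and PBS.

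Among pairs of members, Mmp7 and Mmp12 had the highest correlation of levels across classes. Over 11 classes, the Pearson correlation of log2(CPM + 5) between Mmp7 and Mmp12 was 0.986, and that between Mmp2 and Mmp19 was 0.915. Mmp14 and Timp3 had a value of 0.779. These values share cells, libraries and depth, and are a description. Mmp7 and Mmp12 were nearly confined to macrophage-like cells, so that class largely sets the value of this pair. Among 9023 genes with at least 200 UMIs, those most like Mmp12 across classes were Pla2g2d, Cxcr1 and Vsig4 (0.992, 0.990 and 0.988), and those most like Mmp7 were Cxcr1, Psca and Vsig4 (0.996, 0.992 and 0.990). Trem1, Ccr1 and Hp were most like Mmp9 (0.983, 0.963 and 0.955). Mmp2 was followed most closely by Mcfd2, Pdpn and P3h3 (0.940, 0.914 and 0.908), Mmp14 by Marveld1, Copz2 and Tgfbi (0.935, 0.923 and 0.919), and Mmp19 by Pdpn, Fzd1 and Gfpt2 (0.954, 0.945 and 0.933). For the inhibitors the closest genes were Poglut3, Micos13 and Slc39a1 for Timp1 (0.983, 0.970 and 0.969), Fam20c, Pid1 and Dglucy for Timp2 (0.936, 0.934 and 0.927), and Parva, Prss23 and Ppic for Timp3 (0.969, 0.967 and 0.958).

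The next question was how the treatments differed within a class, in the 6 classes that had 50 or more cells in every library. In macrophage-like cells, Mmp12 was highest in G-HD, whereas Mmp7 and Mmp9 were highest in PBS and lowest in MPG-HD. Genes were measured where both libraries together held at least 50 UMIs, and a ratio of CPM of at least 2 or at most 0.5 is called past 2-fold. The MPG-HD over PBS comparison had 3 of 7 measured members past 2-fold, Mmp2 higher and Mmp7 and Mmp9 lower, where 1.67% of all 7296 genes measured were past 2-fold. G-HD over PBS also had 3 of 7, Mmp12 higher and Mmp7 and Mmp9 lower, against 2.9% of 7866 genes. MPG-HD over G-HD had 3 of 8, Mmp7, Mmp9 and Mmp12, all lower, against 1.55% of 8012 genes. The members' median log2 ratios were -0.15, 0.35 and -0.30 in these comparisons, and those of all genes measured -0.02, 0.01 and -0.03. Each pair of comparisons shares a library, so the 3 are not independent. The members were chosen with earlier results of these data known, so these counts are no test of an excess over all genes.

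**Figure D2:**
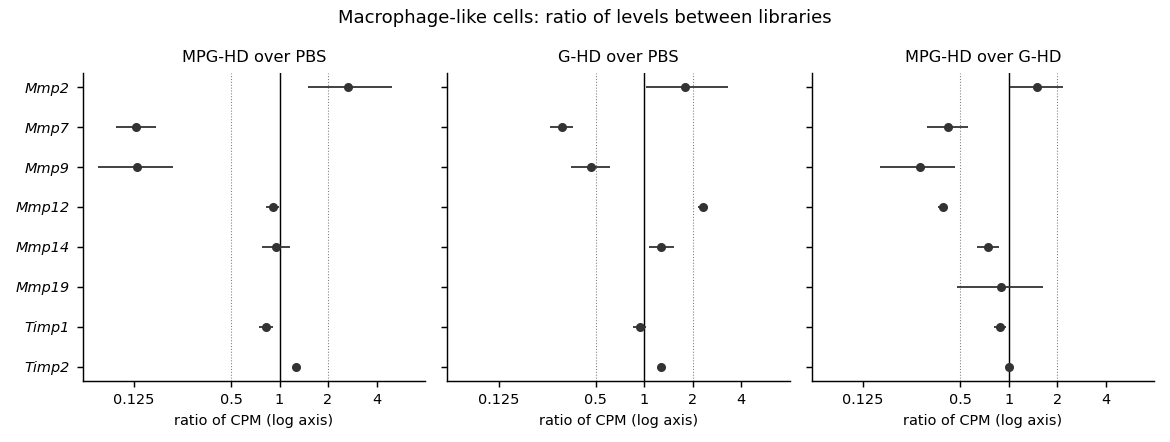
Ratio of CPM between libraries in macrophage-like cells for each member with at least 50 UMIs in both libraries together, on a logarithmic axis, with exact conditional 95% intervals for counting error only; dotted lines mark ratios of 0.5 and 2. Mmp7 and Mmp9 lie left of 0.5 in all 3 panels, Mmp12 lies right of 2 in the G-HD over PBS panel and left of 0.5 in the MPG-HD over G-HD panel, and Timp1 and Timp2 lie between the lines in each.

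Mmp12 had 161 CPM in MPG-HD macrophage-like cells (95% interval 152 to 171), 415 CPM in G-HD cells (403 to 426) and 178 CPM in PBS cells (167 to 190). The G-HD library was high, and the other two were close to each other. The ratios were 0.904 for MPG-HD over PBS (0.829 to 0.986), 2.32 for G-HD over PBS (2.17 to 2.49) and 0.389 for MPG-HD over G-HD (0.365 to 0.415). UMIs of Mmp12 were found in 17.8% of MPG-HD, 32.8% of G-HD and 18.3% of PBS macrophage-like cells, or 6.01%, 13% and 8.36% once every cell was thinned to 1000 UMIs. In oligodendrocyte-like cells, which should lack the gene, the unthinned shares were 0.505%, 5.88% and 0.885%. The median depths were 15153, 16428 and 15352.5 UMIs in macrophage-like cells and 12079, 11702.5 and 10792.5 UMIs in oligodendrocyte-like cells. With every cell given the same weight the G-HD over PBS ratio was 1.93, with every macrophage-like cluster given the same weight it was 1.93, and after thinning it was 1.72, all under 2-fold.

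Few cells carried most of the Mmp12 signal. In MPG-HD, 14 cells held 50% of the Mmp12 UMIs of the class, in G-HD 22 cells and in PBS 10 cells. The cell with the most held 71 UMIs in MPG-HD, 564 in G-HD and 74 in PBS. Without that cell in each library the levels were 152, 369 and 165 CPM, so the order of the libraries stood.

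Mmp7 had 8.61 CPM in MPG-HD macrophage-like cells (6.60 to 11), 20.5 CPM in G-HD cells (18.1 to 23.3) and 66.4 CPM in PBS cells (59.7 to 73.7). PBS was the high library and MPG-HD the low one, and G-HD lay between them. The intervals did not overlap, but they leave out the spread between cells and animals. The ratio was 0.130 for MPG-HD over PBS (0.0973 to 0.170), 0.309 for G-HD over PBS (0.262 to 0.364) and 0.419 for MPG-HD over G-HD (0.312 to 0.556). Its share of cells with a UMI was 7.80%, 10.4% and 19.8% in MPG-HD, G-HD and PBS, or 0.891%, 1.44% and 2.69% after thinning. Oligodendrocyte-like cells held 1, 0 and 1 of its UMIs. The top cells held 6, 30 and 53 UMIs, and without them the levels were 7.80, 18.1 and 57.4 CPM in MPG-HD, G-HD and PBS.

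Mmp9 had 18 UMIs in 4 MPG-HD macrophage-like cells, 109 UMIs in 19 G-HD cells and 103 UMIs in 10 PBS cells. These are 2.50, 8.92 and 19.1 CPM, with PBS high and MPG-HD low. The ratio was 0.131 for MPG-HD over PBS (0.0746 to 0.217), 0.467 for G-HD over PBS (0.353 to 0.617) and 0.280 for MPG-HD over G-HD (0.160 to 0.464). A single cell held 11, 47 and 43 of these UMIs in MPG-HD, G-HD and PBS, and 0.978, 5.09 and 11.2 CPM remained without it. These 3 cells had 0, 1 and 0 UMIs of the 10 neutrophil markers among totals of 40170, 32814 and 23577 UMIs. In the whole class, neutrophil markers summed to 36.7, 85.8 and 61.8 CPM in MPG-HD, G-HD and PBS, with 3, 2 and 2 of the 10 at 0.

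Mmp2 was low in macrophage-like cells, with 57 UMIs in MPG-HD, 65 in G-HD and 16 in PBS. Its ratio was 2.67 for MPG-HD over PBS (1.51 to 4.97), 1.79 for G-HD over PBS (1.02 to 3.32) and 1.49 for MPG-HD over G-HD (1.02 to 2.16). The shares of cells with a UMI were 7.57%, 5.99% and 3.85%, against 2.27%, 3.53% and 1.33% of oligodendrocyte-like cells in MPG-HD, G-HD and PBS. A single cell held 12 of the 57 Mmp2 UMIs in MPG-HD, and 1 cell held 12 of the 65 in G-HD. Fibroblast markers summed to 20.6, 53.6 and 20.04 CPM in the macrophage-like cells of MPG-HD, G-HD and PBS. Col5a1, 1 of the 7, was at 0 in each. The part of fibroblast RNA in the Mmp2 ratios was not tested.

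The remaining members differed less. Mmp14 had ratios of 0.951 for MPG-HD over PBS (0.779 to 1.16), 1.28 for G-HD over PBS (1.08 to 1.52) and 0.744 for MPG-HD over G-HD (0.634 to 0.870). Timp1 had 116, 132 and 140 CPM in MPG-HD, G-HD and PBS, with ratios of 0.826 (0.747 to 0.912) for MPG-HD over PBS and 0.936 (0.858 to 1.02) for G-HD over PBS. Timp2 was higher in both hydrogel libraries, at 501 CPM in MPG-HD and 502 CPM in G-HD against 394 CPM in PBS, and each ratio to PBS was 1.27, with intervals of 1.2 to 1.34 for MPG-HD and 1.21 to 1.34 for G-HD. Mmp19 had 18, 34 and 13 UMIs in the class, which gives a ratio of 0.898 for MPG-HD over G-HD (0.478 to 1.64).

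The macrophage-like class held 3 clusters, which the members divided unevenly. Cluster 2 was led by Mmp12 and by Fabp4, Apoc4 and Spp1, genes of lipid handling and of matrix, even though Mmp12 was kept out of the clustering. Cluster 4 was led by Ms4a4e, Cd8a and the complement genes C1qc, C1qb and C1qa, and cluster 6 by class II antigen presentation genes with Clec10a and Lyve1. Cluster 2 had 194 MPG-HD, 409 G-HD and 151 PBS cells, cluster 4 had 151, 162 and 121, and cluster 6 had 104, 130 and 66.

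**Figure D3:**
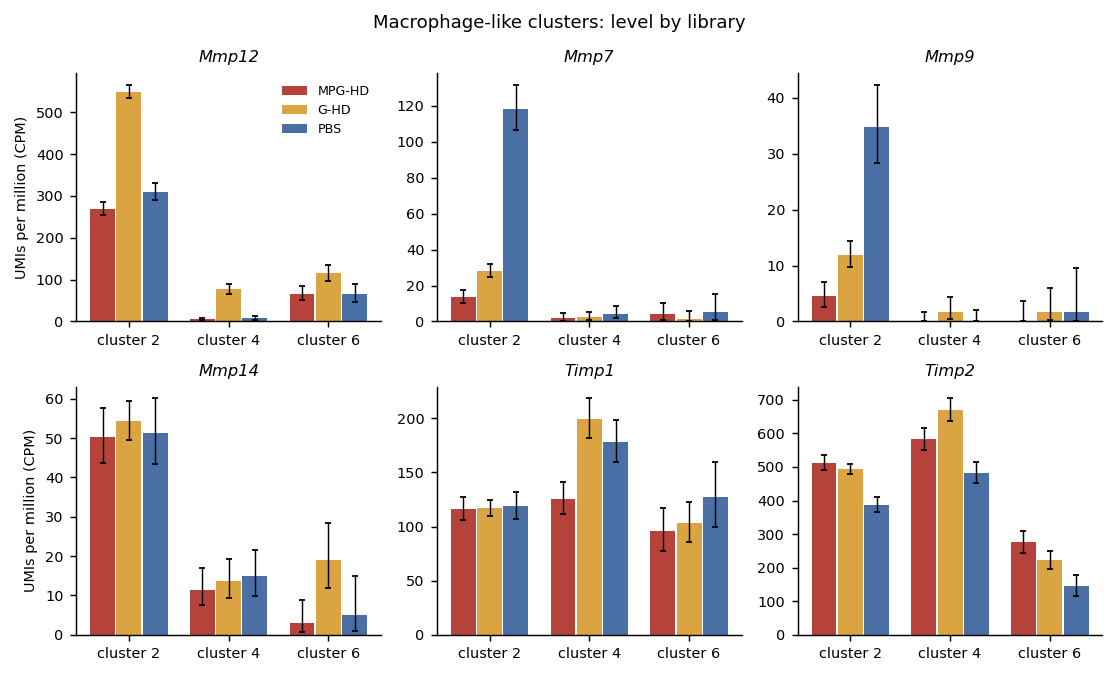
Level of 6 of the genes, in CPM of the cluster, in the macrophage-like clusters 2, 4 and 6; bars are MPG-HD, G-HD and PBS libraries from left to right, with 95% Poisson intervals for counting error only, and each panel has its own axis from 0. Mmp12, Mmp7, Mmp9 and Mmp14 are highest in cluster 2 in every library, Timp2 is highest in cluster 4, and the PBS bars of Mmp7 and Mmp9 in cluster 2 stand above the MPG-HD and G-HD bars.

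Within cluster 2, Mmp12 had 269 CPM in MPG-HD, 549 CPM in G-HD and 310 CPM in PBS. The G-HD library again stood above the others, with a G-HD over PBS ratio of 1.77 (1.65 to 1.90) and an MPG-HD over G-HD ratio of 0.491 (0.459 to 0.524). The cluster held 409 of the 701 macrophage-like G-HD cells and 151 of the 338 PBS cells. Mmp7 had 13.4, 28.1 and 118 CPM in cluster 2 of MPG-HD, G-HD and PBS. Its ratio there was 0.113 for MPG-HD over PBS (0.0835 to 0.151) and 0.237 for G-HD over PBS (0.201 to 0.280), farther from 1 than over the class. All 18 MPG-HD, 103 of 109 G-HD and 102 of 103 PBS macrophage-like Mmp9 UMIs were in cluster 2.

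In cluster 4, Mmp12 was seen in 5 MPG-HD, 17 G-HD and 2 PBS cells. The counts were 11, 181 and 14 UMIs, or 5.06, 76.7 and 7.47 CPM, and the G-HD over PBS ratio was 10.3 (5.96 to 19.2). A single G-HD cell held 82 of the 181 UMIs and a single PBS cell 13 of the 14, and without the top cell of each library 3.24, 42.3 and 0.538 CPM remained in MPG-HD, G-HD and PBS. In cluster 6, where 5, 18 and 4 cells had the gene, the levels were 66.7, 115 and 65.1 CPM. G-HD was thus the highest library for Mmp12 in each of the 3 clusters.

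Mmp14 was highest in cluster 2 in each library, with 50.3, 54.4 and 51.2 CPM in MPG-HD, G-HD and PBS. It had 11.5, 13.6 and 14.9 CPM in cluster 4, and 2.98, 18.9 and 5.14 CPM in cluster 6, from 3, 23 and 3 UMIs. Timp2 was lowest in cluster 6, at 276, 222 and 144 CPM, and highest in cluster 4, at 583, 671 and 483 CPM. Its ratio of MPG-HD over PBS was 1.33 in cluster 2 (1.23 to 1.43), 1.21 in cluster 4 (1.11 to 1.32) and 1.91 in cluster 6 (1.49 to 2.47), so PBS was the lowest library in all 3. Timp1 differed in cluster 4, with 126, 200 and 178 CPM in MPG-HD, G-HD and PBS and an MPG-HD over PBS ratio of 0.705 (0.599 to 0.830). In cluster 2 it had 116, 117 and 119 CPM.

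Cells of cluster 2 with a Mmp12 UMI also had UMIs of other metalloproteases more often than cells without. Mmp7 was found in 21.4% of the MPG-HD cells with Mmp12 and 12.1% of those without, in 20.5% and 12.1% in G-HD, and in 62.5% and 24.2% in PBS. For Mmp14 the shares with and without Mmp12 were 64.3% and 40.3% in MPG-HD, 57.4% and 43.5% in G-HD, and 53.6% and 45.3% in PBS. Mmp9 did not follow one direction, with 4.29% and 0.806% in MPG-HD, 3.59% and 2.80% in G-HD, and 1.79% and 8.42% in PBS. Cells with Mmp12 were deeper, with medians of 23554, 23177 and 22118 UMIs against 19572, 17628 and 17036 UMIs for cells without it in MPG-HD, G-HD and PBS, and the part of depth in these shares was not tested. Of 449 MPG-HD, 701 G-HD and 338 PBS macrophage-like cells, 35, 73 and 67 had Mmp7. Mmp9 was found in 4, 19 and 10 of them, and both genes in 1, 2 and 4. With so few Mmp9 cells, whether the genes share or avoid cells cannot be read from these counts and was not tested.

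Mmp8, the collagenase gene between Mmp12 and Mmp7 in the genome, was the 1 gene of the list of further MMPs that was measured in macrophage-like cells. Its highest class was neutrophil-like cells in all 3 libraries, with a mean of 1401 CPM against 109 CPM in macrophage-like cells. In macrophage-like cells Mmp8 had 147 CPM in MPG-HD, 87.5 CPM in G-HD and 93.7 CPM in PBS, so the MPG-HD library was high. Its ratio was 1.57 for MPG-HD over PBS (1.41 to 1.75), 0.934 for G-HD over PBS (0.839 to 1.04) and 1.68 for MPG-HD over G-HD (1.54 to 1.83). In cluster 2 it had 257, 121 and 169 CPM in MPG-HD, G-HD and PBS. A single cell held 100, 43 and 52 of these UMIs, and 234, 116 and 152 CPM remained without it. Mmp8 was found in 77.1%, 48.2% and 62.5% of the cells with Mmp12 in MPG-HD, G-HD and PBS. Of those without, 17.7%, 13.6% and 10.5% had it. The genes from Mmp12 to Mmp7 on chromosome 8 thus held 3 library orders in macrophage-like cells, with Mmp12 highest in G-HD, Mmp7 in PBS and Mmp8 in MPG-HD.

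In neutrophil-like cells, Mmp9 had 16 UMIs in 31 MPG-HD cells, 114 UMIs in 133 G-HD cells and 4 UMIs in 26 PBS cells, or 284, 212 and 53.9 CPM. The thinned shares of cells with a UMI, 10.7%, 15.6% and 16%, did not follow that order. Cluster 20, led by the granule genes Camp and Ngp, held 2, 60 and 5 of these cells and 12, 102 and 0 of these UMIs. Cluster 17 held 29, 73 and 21 cells, with 85.7, 103 and 112 CPM of Mmp9 in MPG-HD, G-HD and PBS from 4, 12 and 4 UMIs. The class had under 50 cells in MPG-HD and in PBS, and no ratio was formed.

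Mmp2 differed between the libraries in microglia-like cells too, with MPG-HD high and PBS low. It had 68.2 CPM in MPG-HD (61.2 to 75.9), 45.4 CPM in G-HD (38.7 to 53.1) and 35.5 CPM in PBS (29.3 to 42.6). It was found in 45.1%, 32.8% and 26.2% of cells, or 6.17%, 5.05% and 2.59% after thinning, in the same order. The ratio was 1.92 for MPG-HD over PBS (1.55 to 2.39), 1.28 for G-HD over PBS (1.00 to 1.64) and 1.5 for MPG-HD over G-HD (1.24 to 1.82). In cluster 1, the main microglia-like cluster with 323, 188 and 243 cells, Mmp2 had 70.7, 55.7 and 36.1 CPM. In cluster 12, led by interferon-induced genes, it had 58.6, 27.5 and 30.9 CPM, and 1 MPG-HD cell held 35 of that library's 59 UMIs, without which 24.3 CPM remained. Fibroblast markers summed to 15.6, 29.7 and 18.4 CPM in microglia-like cells of MPG-HD, G-HD and PBS, with 1, 0 and 2 of the 7 at 0.

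Timp2 in microglia-like cells was highest in G-HD, with 463 CPM in MPG-HD, 589 CPM in G-HD and 381 CPM in PBS. The ratio was 1.21 for MPG-HD over PBS (1.13 to 1.30), 1.55 for G-HD over PBS (1.44 to 1.66) and 0.786 for MPG-HD over G-HD (0.740 to 0.834). PBS was thus the lowest library for Timp2 in both phagocyte classes. Timp1 had 139, 119 and 140 CPM. None of the 3 measured members was past 2-fold in microglia-like cells in any comparison, where 1.09% (MPG-HD over PBS), 2.33% (G-HD over PBS) and 1.26% (MPG-HD over G-HD) of all genes measured were.

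In fibroblast-like cells, Mmp14 was higher and Timp1 lower in G-HD than in PBS. No member was past 2-fold: 0 of 5 in MPG-HD over PBS, where 2.9% of all genes measured were, 0 of 5 in G-HD over PBS (7.23%) and 0 of 6 in MPG-HD over G-HD (5.41%). Mmp14 had 202 CPM in MPG-HD, 289 CPM in G-HD and 173 CPM in PBS, with ratios of 1.16 for MPG-HD over PBS (1.01 to 1.35) and 1.67 for G-HD over PBS (1.46 to 1.90). Timp1 had 2136 CPM in MPG-HD, 1677 CPM in G-HD and 2834 CPM in PBS. Its ratios were 0.754 for MPG-HD over PBS (0.725 to 0.784) and 0.592 for G-HD over PBS (0.569 to 0.616). A single PBS cell held 616 of the 5330 Timp1 UMIs. The median log2 ratio of all genes measured was -0.11 for MPG-HD over G-HD in this class, and no ratio below is corrected for it. Mmp2 had 379, 400 and 355 CPM in MPG-HD, G-HD and PBS, Timp3 had 322, 260 and 318 CPM, and Mmp19 had 9.10, 11.2 and 9.57 CPM.

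The fibroblast-like class was made of clusters in unequal mix, so its averages need the clusters beside them. Cluster 11, led by Igf2 and A2m, held 47 MPG-HD, 126 G-HD and 34 PBS cells, cluster 13, led by Smoc2, held 81, 50 and 59, and cluster 16, led by Sfrp2 and collagen genes, held 40, 61 and 43. Most G-HD cells were thus in cluster 11, whereas cluster 13 was the largest in MPG-HD and PBS.

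**Figure D4:**
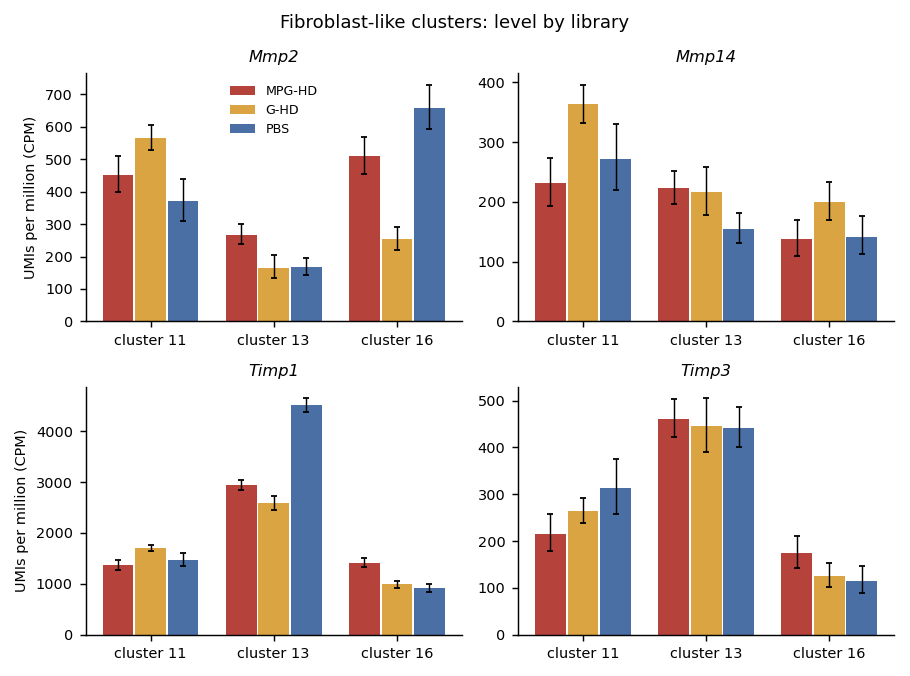
Level of Mmp2, Mmp14, Timp1 and Timp3, in CPM of the cluster, in the fibroblast-like clusters 11, 13 and 16; bars are MPG-HD, G-HD and PBS libraries from left to right, with 95% Poisson intervals for counting error only, and each panel has its own axis from 0. Timp1 and Timp3 are highest in cluster 13 and Mmp2 lowest there in every library, and the PBS bar of Timp1 in cluster 13, at 4508 CPM, stands above all others of that gene.

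Of the 3 clusters, cluster 13 was the one in which Timp1 was lower in G-HD than in PBS. There it had 2937 CPM in MPG-HD, 2596 CPM in G-HD and 4508 CPM in PBS, with ratios of 0.652 for MPG-HD over PBS (0.622 to 0.682) and 0.576 for G-HD over PBS (0.542 to 0.612). In cluster 11 it had 1372, 1704 and 1469 CPM, and in cluster 16 it had 1419, 988 and 921 CPM. The G-HD over PBS ratio was 1.16 in cluster 11 (1.06 to 1.28) and 1.07 in cluster 16 (0.959 to 1.2), and over the class it was 0.767 with every cluster given the same weight. Mmp14, by contrast, had similar ratios of G-HD over PBS in clusters 11, 13 and 16, at 1.34 (1.08 to 1.68), 1.39 (1.08 to 1.79) and 1.41 (1.07 to 1.86).

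Mmp2 showed opposite differences that the class average hid. In cluster 11 it had 452 CPM in MPG-HD, 565 CPM in G-HD and 371 CPM in PBS, a G-HD over PBS ratio of 1.52 (1.27 to 1.84). In cluster 16 it had 509, 254 and 658 CPM, with a ratio of 0.386 (0.323 to 0.460) for G-HD over PBS, so there G-HD was the low library. In cluster 13 it had 267, 166 and 167 CPM. Timp3 was close to even in cluster 13, with 461, 445 and 442 CPM in MPG-HD, G-HD and PBS, and had 216, 263 and 313 CPM in cluster 11 and 174, 126 and 116 CPM in cluster 16.

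Schwann-like cells, which ensheath peripheral axons, carried Mmp2 at 88.1, 96.9 and 122 CPM and Mmp14 at 90.0, 74.4 and 76.8 CPM in MPG-HD, G-HD and PBS. Timp1 had 548, 535 and 427 CPM, Timp2 had 89.0, 126 and 74.8 CPM, and Timp3 had 59.7, 69.5 and 70.9 CPM. The ratio farthest from 1 was that of Timp2 for G-HD over PBS, at 1.69 (1.17 to 2.49). In each comparison 0 of 5 measured members were past 2-fold, where 1.77% (MPG-HD over PBS), 2.98% (G-HD over PBS) and 1.07% (MPG-HD over G-HD) of all genes measured were.

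Oligodendrocyte-like cells had 1 of 2 measured members past 2-fold in G-HD over PBS, where 2.02% of all genes measured were. This was Timp2, with 71 UMIs in MPG-HD, 54 in G-HD and 26 in PBS, or 14.0, 26.9 and 9.94 CPM. The ratio was 2.71 for G-HD over PBS (1.67 to 4.51), 1.40 for MPG-HD over PBS (0.884 to 2.29) and 0.518 for MPG-HD over G-HD (0.359 to 0.752). Markers of other cells were also highest in the G-HD library of this class. Macrophage markers summed to 557, 938 and 538 CPM in MPG-HD, G-HD and PBS, with 2, 1 and 4 of the 12 at 0, and neutrophil markers to 1.77, 280 and 8.80 CPM, with 7, 4 and 6 of the 10 at 0. Their part in the Timp2 difference was not tested. Timp1 had 171, 155 and 115 CPM, with a ratio of 1.48 for MPG-HD over PBS (1.30 to 1.70) and of 1.34 for G-HD over PBS (1.14 to 1.58). In MPG-HD over PBS and MPG-HD over G-HD, 0 of 2 members were past 2-fold, against 1.34% and 1.47% of all genes. In T-like cells, no member reached 50 UMIs in any comparison.

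A library-wide level mixes the levels within classes with the make-up of the suspension, and in a sum over cells fewer cells of a type and less RNA per cell cannot be told apart. Setting each library to the class shares of PBS UMIs separated these as a description. For Mmp12, the library ratio of G-HD over PBS was 3.33 and that at PBS shares was 2.39, and MPG-HD over PBS gave 0.827 and 0.914. For Mmp9 in G-HD over PBS, the library ratio was 1.25 (0.996 to 1.57), and the ratio at PBS shares was 0.636. The first interval includes 1, the second ratio has none, and 1 macrophage-like cell held 43 of the 119 PBS UMIs. G-HD had 133 neutrophil-like cells against 26 in PBS. Mmp7 gave 0.120 and 0.133 for MPG-HD over PBS and 0.446 and 0.332 for G-HD over PBS. Timp1 gave 0.758 and 0.832 for MPG-HD over PBS and 0.674 and 0.712 for G-HD over PBS, and Timp2 gave 1.14 and 1.21 for MPG-HD over PBS and 1.40 and 1.30 for G-HD over PBS.

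Other genes of the system were read from lists of further metalloproteases, of the proteases that activate them, of other inhibitors and clearance receptors, and of the related ADAM and ADAMTS proteases. Over all genes measured in macrophage-like cells, 1.67% were past 2-fold in MPG-HD over PBS, 2.9% in G-HD over PBS and 1.55% in MPG-HD over G-HD. Of the activation genes, 0 of 7 measured were past 2-fold in any of the 3 comparisons. Ctsb and Ctsl, lysosomal cathepsins, had ratios of 0.970 and 1.04 for MPG-HD over PBS and of 1.02 and 1.46 for G-HD over PBS. Bsg, a surface protein known to induce metalloproteases, had 0.996 and 1.15 in the same order of comparisons, and Plaur, the urokinase receptor, had 0.555 (0.453 to 0.679) and 0.783 (0.665 to 0.924). Of the inhibitors, 0 of 3 measured in MPG-HD over PBS, 1 of 4 in G-HD over PBS and 1 of 4 in MPG-HD over G-HD were past 2-fold. That gene was Serpinf1, with 56 UMIs in G-HD and 8 in PBS and a ratio of 3.09 (1.46 to 7.50), and it was also past 2-fold in MPG-HD over G-HD, at 0.455 (0.239 to 0.815). Fibroblast markers in macrophage-like cells summed to 20.6, 53.6 and 20.04 CPM in MPG-HD, G-HD and PBS, with 1 of the 7 at 0 in each, and their part in the Serpinf1 difference was not tested. Tfpi2 had 0.936 for MPG-HD over PBS and 0.823 for G-HD over PBS, and the clearance receptor Lrp1 had 0.977 and 1.02. None of the ADAM genes, 3 measured in MPG-HD over PBS, 5 in G-HD over PBS and 4 in MPG-HD over G-HD, and not Adamts2, the 1 measured ADAMTS gene, was past 2-fold. Adam15, Adam17, Adam10 and Adam8 had ratios of 0.829, 0.899, 1.55 and 1.26 for G-HD over PBS.

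In fibroblast-like cells the same lists held more differences, in a class where 7.23% of all genes were past 2-fold in G-HD over PBS. In that comparison 1 of 4 measured genes of the further metalloprotease list and 0 of 5 activation genes were past 2-fold. Of 9 inhibitor and clearance genes, 2 were higher and 1 lower. The ADAM list had 1 of 4 and the ADAMTS list 2 of 6. MPG-HD over PBS had 1 inhibitor gene of 8, against 2.9% of all genes, and none in the other lists. MPG-HD over G-HD had 1 inhibitor gene of 8 and 1 ADAMTS gene of 6, against 5.41%. Timp4, the fourth inhibitor of the family, was low, with 38, 26 and 58 UMIs, and had a ratio of 0.534 for MPG-HD over PBS (0.345 to 0.817) and 0.305 for G-HD over PBS (0.184 to 0.492). Thbs1 had 51, 15 and 37 UMIs in MPG-HD, G-HD and PBS, a ratio of 0.276 for G-HD over PBS and of 4.07 for MPG-HD over G-HD. Adam15 was lower in G-HD than in PBS, at 0.461 (0.380 to 0.559), and Adamts12 and Adamts15 were higher, at 2.32 (1.91 to 2.84) and 2.21 (1.66 to 2.98). A2m, a broad protease inhibitor, had 644, 1283 and 483 CPM in MPG-HD, G-HD and PBS, with a ratio of 2.66 for G-HD over PBS (2.47 to 2.86). It is a leading gene of cluster 11. The part of the cluster mix in the ratios of Timp4, Thbs1, Adam15, Adamts12, Adamts15 and A2m was not tested. Mmp23, found mainly in fibroblast-like cells, had 126, 145 and 131 CPM in MPG-HD, G-HD and PBS. In oligodendrocyte-like cells Serpine2, an inhibitor of thrombin and plasminogen activators, was the 1 gene measured of the inhibitor list. It had 137, 122 and 31 UMIs in MPG-HD, G-HD and PBS. The ratios were 2.27 for MPG-HD over PBS (1.53 to 3.47) and 5.13 for G-HD over PBS (3.44 to 7.88). Of all genes measured in this class, 1.34% and 2.02% were past 2-fold in these comparisons. The part of RNA from other cells in the Serpine2 ratios was not tested.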

How the data were processed

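The deposited matrices hold raw UMI counts per gene and barcode, with no normalization by the authors, per the file headers. Cell Ranger 3.0.2 with mouse builds (GRCm38, mm10) is named in the submitters' processing notes, but the header of the matrices gives 3.1.0 and the features are rat. The rat build behind the counts is not given in the sources used here. Promoter windows came from RefSeq (GRCr8).

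A cell was kept if it had 200 or more genes and no more than 20% mitochondrial UMIs. Scrublet (Scanpy 1.11.5, expected rate 6%) called 12 of 5815 cells (0.206%), was taken as not having worked, and the 12 were removed. Clustering used 2000 variable genes in 20 expression bins, without 69 MMP, TIMP, ADAM and ADAMTS genes, then 30 components, 20 neighbours, Jaccard weights and the Leiden method at resolution 0.8 (leidenalg 0.10.2). Of 10 starts, the one of best quality was kept, a choice made after the boundary of microglia-like and macrophage-like cells was seen to move. Names came from 20 marker sets, and cluster 21 stayed unnamed by a tie rule added after the clusters were seen.

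Poisson, binomial (Clopper-Pearson) and conditional ratio intervals are exact and cover counting error only. No p-value was computed. The calculation was tested on simulated counts drawn independently, as the intervals assume. That test says nothing of the spread between cells or animals. The members and gene lists were chosen with earlier results of these data known. By rule, the text names all 9 members, the 3 genes most like each, and from each list up to 4 genes with the most UMIs in macrophage-like cells and any past 2-fold; Mmp23 was named after its values were seen. A gene of the inhibitor list that the rule would name is not reported here, but is in the list's counts. Mmp11 and Mmp25 were not analysed here. Alternatives changed the cell filter, resolution, variable genes, weights, top cell, depth, scaling and minimum UMIs.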

Additional observations from a re-analysis of the deposited data

How the results depend on the processing

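The count of members past 2-fold in macrophage-like cells was 3 in each comparison and between 2 and 4 under the cell filters, resolutions, variable genes, weights and scalings tried. Thinning every cell to 1000 UMIs was the exception and left 0 members past 2-fold in MPG-HD over PBS, 0 in G-HD over PBS and 1 in MPG-HD over G-HD. Mmp2, Mmp7 and Mmp9 then held under 50 UMIs, whereas Mmp12 held 232 in G-HD over PBS and its ratio was 1.72. In the other classes 1 member was past 2-fold, and the count was 5 with no cell filter, 2 with the stricter filter, 4 with 1000 variable genes, 2 with equal weight per cell, 0 with equal weight per cluster, 0 after thinning and 5 from 10 UMIs on; the causes were not tested. Of 838 recomputed member ratios, 760 stayed inside the counting interval of the reported value, 76 left it and 2 reversed, both after thinning: Timp2 in oligodendrocyte-like cells, G-HD over PBS, to 0.651 with 3 UMIs left, and Mmp9 in macrophage-like cells, MPG-HD over G-HD, to 1.54 with 2 UMIs left. Over 13 settings, Mmp12 in G-HD over PBS ranged between 1.72 and 2.57 and was past 2-fold in 10, the others being thinning, equal weight per cell (1.93) and equal weight per cluster (1.93), and Mmp7 in MPG-HD over PBS ranged between 0.121 and 0.249. Mmp2 in MPG-HD over PBS ranged between 1.49 and 3.12. Apart from thinning, Mmp7 in MPG-HD over G-HD was not past 2-fold with equal weight per cluster (0.596), nor Mmp9 in G-HD over PBS with 1000 variable genes (0.522). Timp2 in oligodendrocyte-like cells, G-HD over PBS, was 1.80 with equal weight per cell and 1.42 with equal weight per cluster. Over 10 Leiden starts the macrophage-like class held 1458 to 1745 cells and 3 members were past 2-fold in each comparison at every start; the starts and the addition of the unnamed cycling cluster 9 to the macrophages were alternatives chosen after seeing the data. The highest class of Timp2 became macrophage-like with no cell filter. No paired analysis was possible because each condition has 1 library.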
